A study of Mus musculus with 30 samples.

Results

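Flk1+ cells sorted from E14 embryoid bodies lacking Sp3 (Sp3-/-) were compared with Flk1+ cells of E14 wild type (WT) in 4 RNA-seq samples, 2 of each genotype. They were chosen by their labels, as the Flk1 samples of the Sp3KO and WT genotypes, from a series of 30 samples that covers 5 populations of a blood differentiation series in 3 genotypes. The comparison addresses which genes change at the mesodermal stage when Sp3 is missing. E14 is a mouse embryonic stem cell (ESC) line. ESC were kept on feeder fibroblasts, passaged without feeders and grown into embryoid bodies, and Flk1+ cells were purified on magnetic columns with an antibody against Flk1. WT cells carry no Sp mutation, Sp3-/- cells carry the Sp3 knockout, and the Sp1 ΔDBD/ΔDBD Flk1+ samples used for comparison carry an Sp1 without its DNA-binding domain. No treatment was added. A single Sp3-/- line was used, so genotype and line cannot be told apart. The methods let the length of embryoid body culture depend on the cell line. The paper's Flk1 staining of WT and Sp3-/- cells used the same day of culture. Whether the RNA samples differed in culture time is not stated, and any such difference could not be told apart from genotype. The samples were bulk RNA, so fewer cells of a type and less RNA per cell cannot be told apart either.

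Sp1 and Sp3 are zinc finger transcription factors present in most cells. They bind the same GC-rich elements, the GC box and related GT boxes, which are common in the promoters of housekeeping and developmental genes, and the Klf factors of the same family bind similar elements. Flk1, encoded by *Kdr*, is a receptor for vascular endothelial growth factor and marks mesoderm that leaves the primitive streak and can form endothelium, blood and muscle. Nodal, Wnt and FGF signals form the streak, and the ETS factor Etv2 then directs Flk1+ cells to the endothelial and blood lineages.

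*Sp3* itself (GRCm38 chr2:72936427-72980446) was reduced but not absent. Its level was 40.8 and 38.7 FPKM (fragments per kilobase and sequencing depth, quantile normalised across samples by the authors) in the WT samples and 7.11 and 7.79 FPKM in the Sp3-/- samples. This is a log2 fold change of -2.40 (SE 0.186, limma adjusted p = 1.13e-06), and the call was kept without each of the 4 samples in turn. Log2 fold changes here are differences between group means of log2(FPKM + 0.1), Sp3-/- minus WT, and a gene is called at an adjusted p below 0.05. For comparison, *Sp3* changed by -3.09 in ESC and by -2.47 in HE1, the KIT+ CD41- Tie2+ haemogenic endothelium that follows the Flk1+ stage.

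Among the 23 tested Sp and Klf genes, *Sp4*, *Sp5*, *Sp8* and *Klf7* were higher in Sp3-/- Flk1+ cells, *Sp3*, *Klf4*, *Klf8* and *Klf10* were lower, and 15 were not called. Over all 14525 tested genes, 6.69% were called higher and 5.94% lower. The median log2 fold change was 0.26 for the family and 0 for all tested genes. *Sp5*, a target of Wnt signals in the streak, was at 2.72 and 1.90 FPKM in WT and at 25.1 and 20.5 FPKM in Sp3-/- cells (log2 fold change 3.26, SE 0.524, adjusted p = 0.000811). *Sp8* rose from 1.15 and 0.707 FPKM to 5.42 and 6.0 FPKM (2.53, SE 0.421, adjusted p = 0.00104). For both genes every Sp3-/- sample lay above every WT sample, and the call was kept without each sample in turn. *Klf10*, an early target of TGFβ signals, fell from 46.7 and 47.8 FPKM to 15.1 and 20.4 FPKM (-1.42, SE 0.199, adjusted p = 0.000289). *Sp4* (3.16 and 2.46 FPKM in WT, 4.40 and 5.2 FPKM in Sp3-/-, adjusted p = 0.0361) was close to the threshold. Its call, like those of *Klf4*, *Klf7* and *Klf8*, was lost whichever of the 4 samples was left out.

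The closest relative did not pass the test. *Sp1* was at 41.2 and 46.0 FPKM in WT and at 32.7 and 35.7 FPKM in Sp3-/- cells (log2 fold change -0.35, SE 0.168, adjusted p = 0.189), so the Sp3-/- samples lay below the WT samples without a call. *Sp2* was at 4.24 and 4.50 FPKM in WT and at 6.33 and 6.19 FPKM in Sp3-/- (0.51, adjusted p = 0.266). *Klf6* was at 40.9 and 46.1 FPKM against 20.5 and 29.9 FPKM (-0.81, adjusted p = 0.0828). *Sp6*, *Klf1* and *Klf14* did not exceed 0.379 FPKM in any of the 4 samples.

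**Figure D1:**
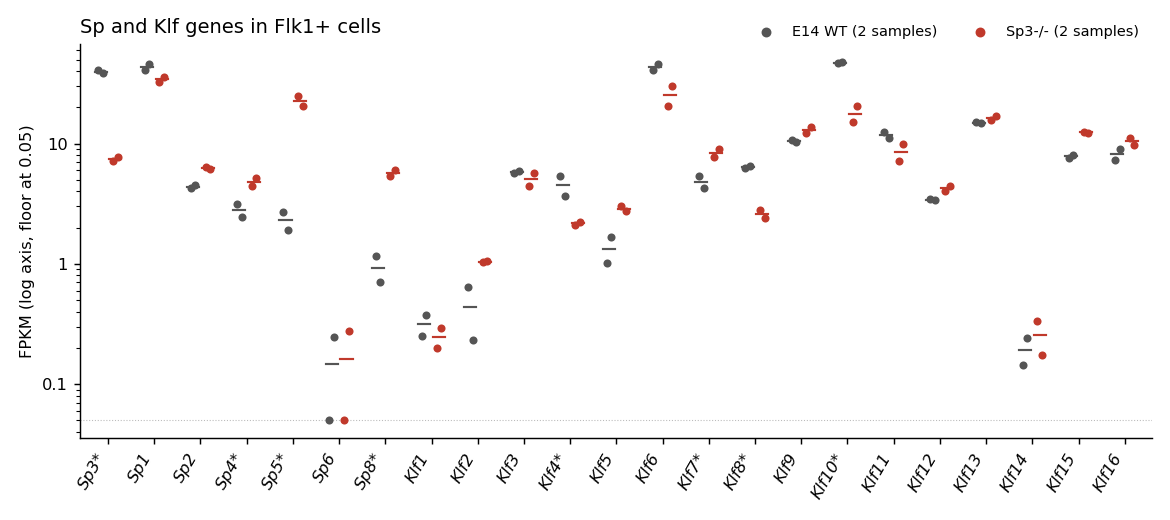
Level of each tested Sp and Klf gene in the 4 Flk1+ samples, as FPKM on a log axis with values below 0.05 drawn at 0.05. Dots are samples, short lines are group means and an asterisk marks a called gene. *Sp3* and *Klf10* lie lower in both Sp3-/- samples and *Sp5* and *Sp8* lie higher, while *Sp1* shifts by -0.35 on the log2 scale without a call.

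Altogether 1835 genes were called (12.6% of those tested), 972 higher and 863 lower in Sp3-/- Flk1+ cells. Of these, 401 rose and 341 fell by more than 2-fold, and 103 rose and 63 fell by more than 4-fold. In every called gene the 2 groups did not overlap, but this is common with groups of 2, since 33.2% of all tested genes had both Sp3-/- samples above both WT samples and 34.8% had both below. With groups of 2 the smallest p of an exact permutation test is 0.333, so the calls rest on the spread that limma shares between genes and between all 30 samples. FPKM values do not show how many reads stand behind them, so the depth of each sample is unknown. The replicates were alike, with a Pearson correlation across genes of 0.989 between the WT samples and 0.987 between the Sp3-/- samples, against 0.963 to 0.973 between genotypes. With a single sample left in a group the count fell to 902 (without WT replicate 1), 400 (without WT replicate 2), 429 (without Sp3-/- replicate 1) and 917 (without Sp3-/- replicate 2). The 294 genes called in all 4 of these fits, 157 higher and 137 lower, are said below to have kept the call, and for any other called gene at least 1 of these fits did not call it. By a fold of group means above 2 with at least 3 FPKM in the higher group, and no test, 349 genes (2.4%) were higher and 302 (2.08%) lower.

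The genes that rose most were led by genes of the Nodal pathway and the anterior streak. *Lefty2*, a Nodal antagonist that Nodal itself switches on, rose from 1.81 and 0.778 FPKM to 23.0 and 27.0 FPKM (log2 fold change 4.27, SE 0.527, adjusted p = 8.94e-05). *Gsc*, a homeobox gene of the anterior streak and organiser, rose from 1.19 and 0.823 FPKM to 20.9 and 13.5 FPKM (3.95, SE 0.560, adjusted p = 0.000323). *Otx2*, a homeobox gene of the epiblast and anterior ectoderm, rose from 3.53 and 1.92 FPKM to 20.9 and 23.1 FPKM (3.03, SE 0.408, adjusted p = 0.00021). All of these kept the call. So did *Lmo1*, a LIM-only cofactor (1.77 and 1.89 against 26.8 and 13.9 FPKM), *Pim2*, a serine/threonine kinase (1.71 and 0.779 against 13.5 and 9.62 FPKM), *Fgf5*, a marker of the late epiblast (0.445 and 0.149 against 3.38 and 2.81 FPKM), *Sox18*, an endothelial factor (0.474 and 0.541 against 4.82 and 4.55 FPKM) and *Jakmip1* (0.937 and 0.142 against 5.22 and 6.11 FPKM). Among the 12 largest rises were also *Sp5*, *Vax1* (0.839 and 0.806 against 12.6 and 8.70 FPKM) and *Dppa5a* (11.8 and 11.5 against 110 and 96.4 FPKM).

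The genes that fell most included imprinted RNAs of chromosome 12 and several receptors and structural genes. *Meg3*, a maternally expressed long RNA, fell from 14.8 and 19.3 FPKM to 0.531 and 0.843 FPKM (log2 fold change -4.46, SE 0.786, adjusted p = 0.00143). *Rian*, from the same imprinted cluster, fell from 32.9 and 36.6 FPKM to 1.97 and 3.02 FPKM (-3.77, SE 0.816, adjusted p = 0.00561). The short RNAs *AF357359* and *AF357426*, for which the annotation used here gave no position, fell as well (-5.80 and -3.89). *Fgfr2*, an FGF receptor, went from 19.5 and 29.2 FPKM to 2.32 and 2.61 FPKM (-3.23, SE 0.602, adjusted p = 0.00213). *Unc5c*, a netrin receptor, went from 21.2 and 28.7 FPKM to 3.34 and 2.63 FPKM (-3.01, SE 0.317, adjusted p = 1.79e-05), and *Ahnak*, a large scaffold protein, from 44.7 and 59.2 FPKM to 6.98 and 8.04 FPKM (-2.76, SE 0.499, adjusted p = 0.00173). *Gjb2*, a gap junction protein, was at 3.42 and 5.40 FPKM in WT and at 1.03 and 0.325 FPKM in Sp3-/- cells. *Meg3*, *Fgfr2*, *Unc5c*, *Ahnak* and *Gjb2* kept the call. *Plac1* (7.59 and 10.2 against 1.22 and 1.17 FPKM), *Spin2c* (19.7 and 23.3 against 2.21 and 2.75 FPKM), *Klk8* (7.83 and 8.08 against 0.723 and 1.3 FPKM) and *Sp3* completed the 12 largest falls.

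**Figure D2:**
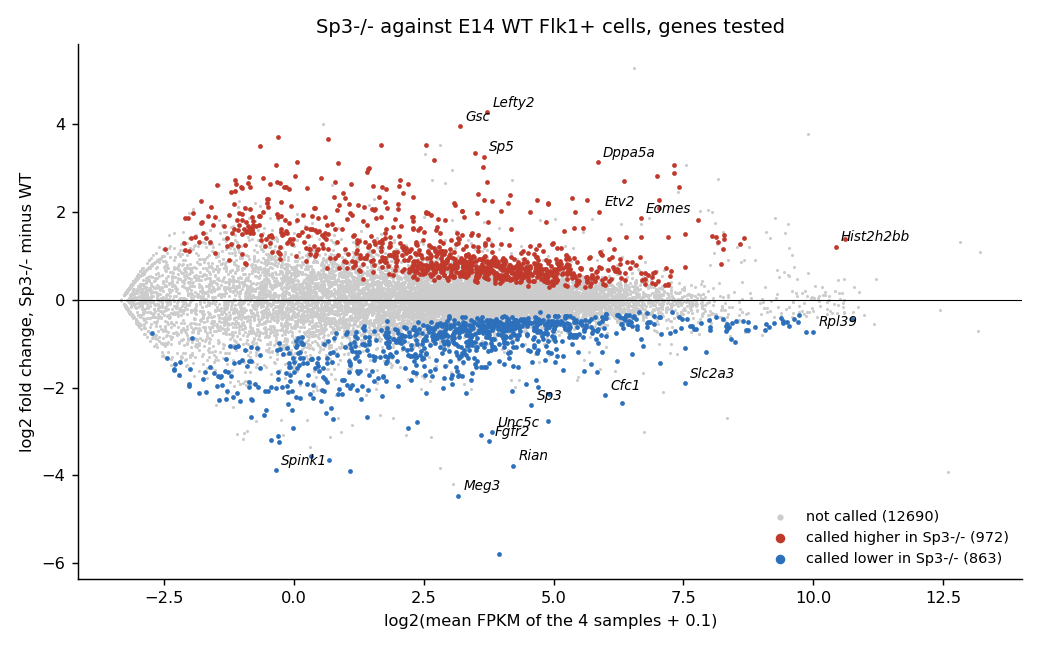
Log2 fold change (Sp3-/- minus WT) of each tested gene against its level, the log2 of mean FPKM + 0.1 over the 4 Flk1+ samples. Red points are the 972 genes called higher, blue points the 863 called lower and grey points the 12690 not called, and named genes are labelled. The calls lie on both sides of 0 at low and high levels.

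The sequence to which Sp factors bind can be seen in the promoters of some of these genes. The 250 bases before the start of 5 named genes are shown from RefSeq on GRCm38.p6, 3 that rose (*Sp4*, *Gsc*, *Eomes*) and 2 that fell (*Phlda3*, a p53 target, and *Unc5c*), chosen to show promoters with and without a GC box. Capitals mark GGGCGG or its reverse complement CCGCCC. The regions are chr12:118301441-118301690 (minus strand) for *Sp4*, chr12:104473237-104473486 (minus strand) for *Gsc*, chr9:118477939-118478188 (plus strand) for *Eomes*, chr1:135765835-135766084 (plus strand) for *Phlda3* and chr3:141465314-141465563 (plus strand) for *Unc5c*.
Sp4: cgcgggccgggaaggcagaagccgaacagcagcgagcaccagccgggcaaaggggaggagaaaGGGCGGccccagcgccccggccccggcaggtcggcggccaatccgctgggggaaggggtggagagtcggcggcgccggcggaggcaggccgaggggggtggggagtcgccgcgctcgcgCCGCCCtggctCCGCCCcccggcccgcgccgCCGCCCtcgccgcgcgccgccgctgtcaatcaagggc
Gsc: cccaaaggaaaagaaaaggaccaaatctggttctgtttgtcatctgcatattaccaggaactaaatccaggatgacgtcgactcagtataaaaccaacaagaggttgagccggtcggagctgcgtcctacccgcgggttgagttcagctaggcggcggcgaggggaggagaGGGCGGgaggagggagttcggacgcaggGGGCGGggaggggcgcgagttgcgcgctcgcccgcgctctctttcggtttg
Eomes: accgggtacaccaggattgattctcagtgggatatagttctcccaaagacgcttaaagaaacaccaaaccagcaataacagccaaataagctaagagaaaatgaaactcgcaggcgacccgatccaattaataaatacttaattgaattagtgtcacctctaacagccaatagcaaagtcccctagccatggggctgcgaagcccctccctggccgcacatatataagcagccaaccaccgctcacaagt
Phlda3: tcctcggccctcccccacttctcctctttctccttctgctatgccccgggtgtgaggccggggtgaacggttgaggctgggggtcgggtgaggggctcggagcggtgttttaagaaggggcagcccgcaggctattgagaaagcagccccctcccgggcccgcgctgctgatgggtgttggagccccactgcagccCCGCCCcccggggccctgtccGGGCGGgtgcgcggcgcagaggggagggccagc
Unc5c: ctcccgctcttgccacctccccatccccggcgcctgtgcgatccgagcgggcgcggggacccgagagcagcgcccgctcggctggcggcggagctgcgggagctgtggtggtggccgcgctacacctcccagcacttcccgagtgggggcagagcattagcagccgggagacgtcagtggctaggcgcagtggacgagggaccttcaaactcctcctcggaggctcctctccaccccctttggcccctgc
*Sp4* had 4 GC boxes in this window, *Gsc* and *Phlda3* had 2 each, and *Eomes* and *Unc5c* had 0. These 5 were picked to show both cases, so they do not show how often the box occurs in either direction. Over the 8990 tested genes with a single listed start, GGGCGG on either strand was present in 54.5% of the 578 promoters of genes called higher, in 70.9% of the 509 of genes called lower and in 59.5% of all 8990, against 32.4% of all 22862 promoters of the reference. The GT box GGTGTGG was present in 7.61% of promoters of genes called higher, in 4.72% of those called lower and in 6.53% of all tested. CCAAT, the motif of NFY, was present in 37.4%, 33.4% and 37.5%, and CCGGAAG, an ETS motif, in 16.4%, 11.6% and 13.7%, in the same order. All 4 motifs were searched on both strands, matches of different motifs may share bases, and a match does not show that a factor binds.

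Many genes of the primitive streak and of Nodal signalling were higher in Sp3-/- Flk1+ cells. Of 26 tested genes, 12 were called higher and 0 lower, with a median log2 fold change of 1.23 against 0 for all tested genes. The list does not hold *Cfc1*, a Nodal coreceptor, which was called lower and is described below. With each sample left out in turn 6 to 8 genes of the list were called higher, and with the trends with GC content and length removed from each sample 9 were, with a median of 0.82.

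*Nodal*, the ligand, which was picked after its values were seen, rose from 0.633 and 0.490 FPKM to 3.42 and 3.0 FPKM (log2 fold change 2.33, SE 0.421, adjusted p = 0.00174). Its antagonists rose as well. *Lefty1* was at 0.0244 and 0 FPKM in WT and at 1.76 and 1.05 FPKM in Sp3-/- (adjusted p = 0.00075), and *Cer1*, also an endoderm marker, was at 0.302 and 0 FPKM in WT and at 1.25 and 2.22 FPKM in Sp3-/- (adjusted p = 0.00134). For these low genes no fold is given, since 1 WT sample was listed at 0. *Eomes*, a T-box factor of the streak, was far more abundant, at 46.6 and 41.9 FPKM in WT and 166 and 154 FPKM in Sp3-/- cells (1.86, SE 0.452, adjusted p = 0.0115). *Lhx1*, a LIM homeobox gene of nascent mesoderm picked after its values were seen, went from 11.9 and 9.39 FPKM to 48.2 and 48.5 FPKM (2.18, SE 0.420, adjusted p = 0.00261). *Fgf8*, a streak ligand, went from 7.03 and 5.13 FPKM to 33.6 and 23.6 FPKM (2.21, SE 0.500, adjusted p = 0.00736). *Mesp1*, which marks mesoderm leaving the streak, went from 51.7 and 39.1 FPKM to 101 and 146 FPKM (1.44, SE 0.32, adjusted p = 0.00678), but its adjusted p was 0.157 after the correction for GC content and length.

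Not all of the list moved. *T* (brachyury), the classical streak gene, was at 41.9 and 31.6 FPKM in WT and at 128 and 112 FPKM in Sp3-/- cells, yet missed the threshold in the fit over all samples (log2 fold change 1.72, SE 0.577, adjusted p = 0.0572) and passed it when the 6 Flk1+ samples were fitted alone (adjusted p = 0.0256). In the latter fit 5 genes of the list were called. Among signal transducers, picked after their values were seen, *Foxh1* was at 130 and 125 FPKM in WT and at 126 and 139 FPKM in Sp3-/-, and *Smad2* at 15.2 and 16.2 FPKM against 13.0 and 13.0 FPKM, with no call for either. *Nodal*, *Lefty1*, *Lefty2*, *Cer1*, *Gsc* and *Lhx1* kept the call, while *Eomes* lost it whichever sample was left out.

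**Figure D3:**
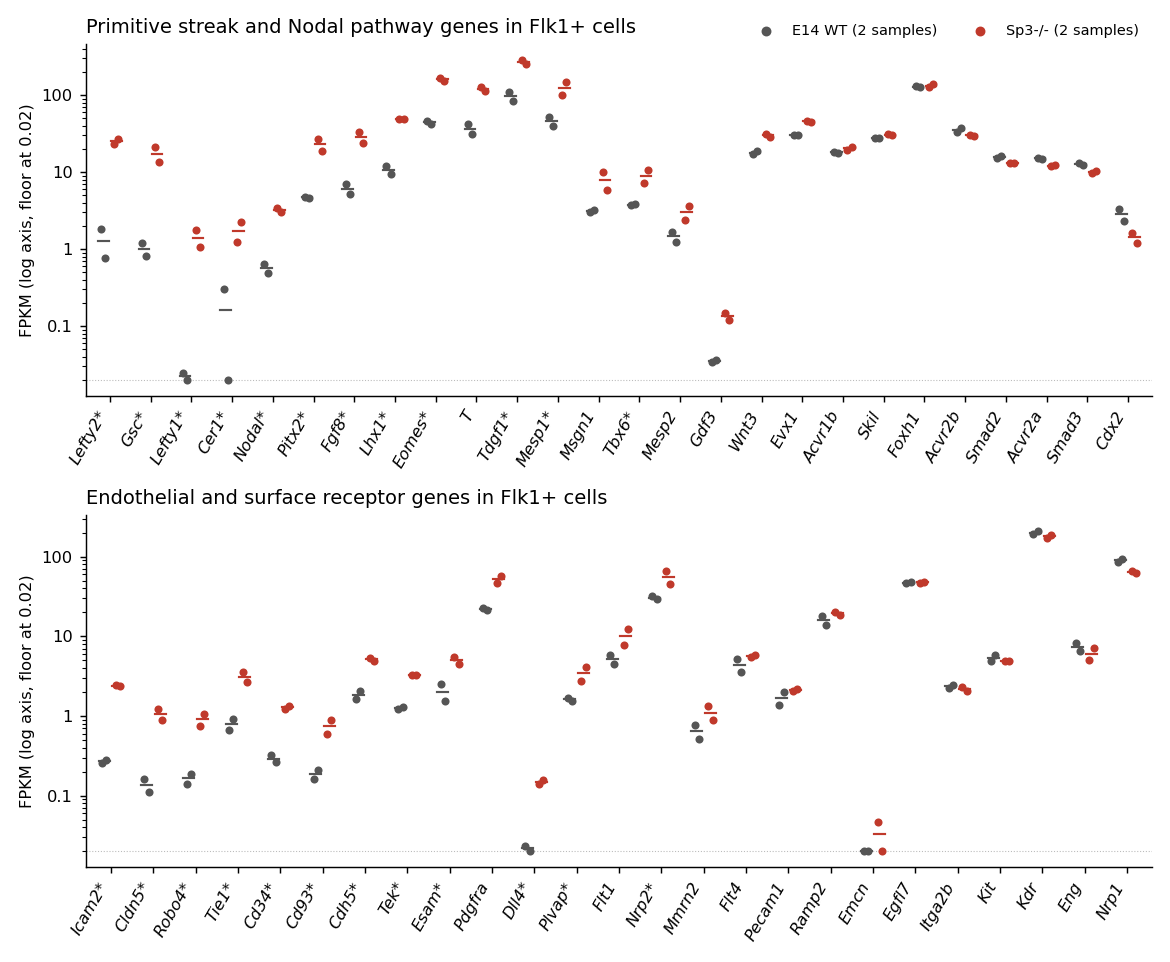
FPKM of 26 tested genes of the primitive streak and Nodal pathway and 25 tested endothelial and surface receptor genes in the 4 Flk1+ samples, on a log axis with values below 0.02 drawn at 0.02 and genes ordered by fold change. Dots are samples, short lines are group means and an asterisk marks a called gene. In each list 12 genes were called higher and 0 lower, and *Kdr* was not called.

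The gene for the sorted antigen did not pass the test, while other endothelial genes rose. *Kdr* was at 192 and 209 FPKM in WT and at 171 and 190 FPKM in Sp3-/- cells, and the log2 fold change was -0.15 (SE 0.261, adjusted p = 0.784). In WT ESC it had a mean of 0.309 FPKM, so all 4 samples carried the marker of the sort. Of the 25 tested endothelial and surface receptor genes, 12 were called higher and 0 lower, with a median log2 fold change of 0.94. *Icam2*, an adhesion molecule of endothelium, was at 0.259 and 0.280 FPKM in WT and at 2.47 and 2.35 FPKM in Sp3-/- cells (2.77, SE 0.267, adjusted p = 1.35e-05) and kept the call. *Cdh5*, the cadherin of endothelial junctions, rose from 1.62 and 2.09 FPKM to 5.42 and 4.85 FPKM (1.43, SE 0.303, adjusted p = 0.00486). *Tek*, the receptor Tie2, rose from 1.22 and 1.29 FPKM to 3.31 and 3.31 FPKM (1.33, SE 0.300, adjusted p = 0.00724), and *Robo4*, a guidance receptor of vessels, from 0.141 and 0.189 FPKM to 0.758 and 1.05 FPKM (1.91, SE 0.421, adjusted p = 0.00631). All of these levels were low beside *Kdr*. The count of 12 was 2 to 4 without 1 sample, 6 with a pseudocount of 1 and 4 when the 6 Flk1+ samples were fitted alone.

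*Etv2* and several factors below it were higher. *Etv2* rose from 31.4 and 17.0 FPKM to 96.1 and 90.2 FPKM (log2 fold change 2.01, SE 0.455, adjusted p = 0.00754). *Fli1*, another ETS factor, rose from 4.90 and 4.07 FPKM to 10.6 and 8.73 FPKM (1.09, SE 0.299, adjusted p = 0.0221) and *Lmo2*, a partner of Tal1, from 32.3 and 23.3 FPKM to 52.2 and 42.1 FPKM (0.77, SE 0.214, adjusted p = 0.0238). *Tal1* itself did not pass the test, at 33.0 and 32.3 FPKM in WT and 28.7 and 29.9 FPKM in Sp3-/- cells (-0.16, SE 0.349, adjusted p = 0.848). The blood factors *Gata1* (2.46 and 3.10 against 0.153 and 0.657 FPKM, -2.71, adjusted p = 0.0381) and *Ikzf1* (3.23 and 3.78 against 0.801 and 1.40 FPKM, -1.63, adjusted p = 0.0213) were lower. In all, 5 of 20 angioblast and blood factors were called higher (*Sox18* and, picked after its values were seen, *Hhex* were the others) and 2 lower, with a median of 0.13. Only *Sox18* of the 7 kept the call.

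Of 18 tested erythroid and globin genes, *Gata1* and the embryonic globin *Hbb-bh1* (0.718 and 1.26 against 0.292 and 0.0595 FPKM, adjusted p = 0.0386) were called lower and 0 higher, with a median of -0.24. *Hba-x* was listed at 0 in all 4 samples. Of 14 genes of lateral plate and cardiac mesoderm, *Foxc2* was called higher (0.255 and 0.0729 against 0.765 and 2.24 FPKM) and *Tbx2* lower (8.84 and 13.3 against 4.04 and 3.46 FPKM), with a median of -0.61. *Hand1*, a factor of extraembryonic and lateral mesoderm, was at 153 and 168 FPKM in WT and at 45.3 and 56.3 FPKM in Sp3-/- cells, with a log2 fold change of -1.66 (SE 1.22, adjusted p = 0.423). The 2 groups did not overlap, and in the 6 Flk1+ samples alone the adjusted p was 0.0258. *Gata4* was at 38.5 and 39.5 FPKM in WT and at 47.5 and 62.8 FPKM in Sp3-/- (0.49, adjusted p = 0.428). Of 21 genes of contractile muscle, *Cald1*, which encodes caldesmon, was called lower (24.6 and 24.0 against 9.77 and 11.3 FPKM). Of 22 Hox genes 0 were called, with a median of -0.35. The shares over all tested genes were 6.69% higher and 5.94% lower, so such small counts do not set these lists apart.

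FGF signalling genes moved in both directions. Of 22 tested genes, 7 were called higher and 2 lower, with a median log2 fold change of 0.61. With 1 sample left out 3 to 4 were called higher and 1 to 2 lower. *Dusp6*, a phosphatase that feeds back on ERK, rose from 20.5 and 13.6 FPKM to 77.3 and 58.4 FPKM (2.0, SE 0.336, adjusted p = 0.00108), and *Spsb4* rose from 1.09 and 0.661 FPKM to 4.35 and 3.74 FPKM (2.12, SE 0.343, adjusted p = 0.000826). Both kept the call. The feedback genes *Spry4*, *Dusp4* and *Etv5*, picked after their values were seen, were called higher with log2 fold changes of 1.89, 1.05 and 1.19. Of the receptors, *Fgfr2* fell as described, *Fgfr3*, picked likewise, was at 2.78 and 3.20 FPKM in WT and 0.524 and 0.685 FPKM in Sp3-/- (-2.14, adjusted p = 0.0127), and *Fgfr1* was at 49.3 and 55.0 FPKM against 43.9 and 46.9 FPKM (-0.20, adjusted p = 0.531).

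Notch genes were called higher in 8 of 19 cases and lower in 0, with a median of 0.34. The ligands *Dll1* (1.3 and 0.586 against 3.65 and 6.55 FPKM, log2 fold change 2.35, SE 0.457, adjusted p = 0.0028) and *Dll3* (5.28 and 3.41 against 18.7 and 23.1 FPKM, 2.26, SE 0.534, adjusted p = 0.00952), the target family member *Hes6* (5.80 and 4.42 against 12.4 and 8.99 FPKM, 1.05) and the glycosyltransferase *Mfng* (0.0999 and 0.149 against 0.583 and 0.575 FPKM) were among them. The receptor *Notch1* was at 9.07 and 7.91 FPKM in WT and 9.50 and 12.1 FPKM in Sp3-/- (0.34, adjusted p = 0.31). With 1 sample left out 0 to 3 genes of the list were called higher.

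Few Wnt genes were called, 4 of 37 higher and 3 lower, with a median of 0.40 (0.28 to 0.47 with 1 sample left out). Over all tested genes 6.69% were called higher and 5.94% lower, so these counts do not set the list apart. *Frzb*, a secreted Wnt antagonist, rose from 4.55 and 2.56 FPKM to 24.4 and 20.97 FPKM (log2 fold change 2.69, SE 0.470, adjusted p = 0.00136). *Fzd10*, a receptor, rose from 5.38 and 4.53 FPKM to 10.9 and 13.5 FPKM (1.28, adjusted p = 0.00291), and the receptor *Fzd4* fell from 3.82 and 4.38 FPKM to 1.29 and 1.07 FPKM (-1.71, SE 0.267, adjusted p = 0.000657). The ligand *Wnt3* (17.1 and 18.6 against 31.6 and 28.8 FPKM) and the target *Axin2* (24.8 and 25.5 against 33.0 and 30.2 FPKM) were not called. In the BMP list, 1 of 25 was called higher and 2 lower, with a median of -0.18. *Id1*, a BMP target, rose from 43.2 and 31.6 FPKM to 99.5 and 93.0 FPKM (1.38, adjusted p = 0.0301), whereas the receptor *Bmpr1a* (50.2 and 55.6 against 32.9 and 36.1 FPKM, -0.62) and the ligand *Bmp5* (13.1 and 14.8 against 6.39 and 5.17 FPKM, -1.26) fell. *Bmp4* was at 79.1 and 94.8 FPKM in WT and 40.7 and 41.4 FPKM in Sp3-/- (-1.07, adjusted p = 0.149 over all samples and 0.0256 in the 6 Flk1+ samples alone).

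Genes of the pluripotent and primed state were in part higher. Of 30 tested, 6 were called higher (among them *Otx2*, *Fgf5*, *Utf1*, *Dppa5a* and *Sox2*) and 2 lower (*Klf4* and, picked after its values were seen, *Prdm14*), with a median of 0.51. *Pou5f1* and *Nanog*, of the core factors, did not pass the test. *Pou5f1* was at 27.4 and 19.6 FPKM in WT and 82.1 and 83.9 FPKM in Sp3-/- cells (log2 fold change 1.84, SE 0.729, adjusted p = 0.106) and *Nanog* at 11.2 and 10.7 FPKM against 8.72 and 9.35 FPKM (-0.27, adjusted p = 0.777). *Sox2*, called higher, stayed below 1 FPKM in all 4 samples. The 10 markers fixed for ESC summed to 31.7 and 27.6 FPKM in the WT samples, to 126 and 113 FPKM in the Sp3-/- samples and to 2309 FPKM in WT ESC, and 2 of the 10 were called higher and 1 lower. Most of the Sp3-/- sum was *Dppa5a*, and *Zfp42*, a marker of naive ESC, was at 1.35 and 1.07 FPKM in WT and 2.61 and 2.59 FPKM in Sp3-/- (adjusted p = 0.311). The part of residual ESC in the results above was not tested.

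Of 4 neuroectoderm markers *Otx2* and *Nes* were called higher, with sums of 10.7 and 7.73 FPKM in WT and 36.3 and 34.3 FPKM in Sp3-/- samples, and *Pax6* did not exceed 0.107 FPKM. Of 5 endoderm markers *Cer1* and *Trf* were called higher, with sums of 3.72 and 3.23 FPKM against 4.29 and 5.09 FPKM, and *Sox17* was at 0.692 and 0.651 FPKM against 1.23 and 0.808 FPKM. Of 5 trophoblast markers *Plac1* was called lower, with sums of 161 and 178 FPKM against 46.6 and 57.6 FPKM that were mostly *Hand1*. Of 8 markers of feeder fibroblasts *Col6a1* was called lower (1.98 and 1.96 against 0.150 and 0.659 FPKM), with sums of 13.1 and 18.1 FPKM against 2.88 and 4.23 FPKM. *Col1a1* made up most of the WT sums, at 8.65 and 13.6 FPKM in WT and 0.970 and 1.38 FPKM in Sp3-/- (-3.12, adjusted p = 0.199). Of the 13 tested Flk1+ mesoderm markers, 5 were called higher and 0 lower, with a median of 0.94. The part of these other cell types in the results above was not tested.

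Glycolysis and hypoxia genes were lower. Of 34 tested genes, 10 were called lower and 1 higher, with a median log2 fold change of -0.45, and 4 to 8 were called lower with 1 sample left out. *Slc2a3*, a glucose transporter, fell from 260 and 320 FPKM to 65.9 and 89.8 FPKM (-1.90, SE 0.282, adjusted p = 0.000473). *Ero1l*, an oxidase of the endoplasmic reticulum induced by hypoxia, fell from 33.1 and 38.3 FPKM to 13.2 and 18.2 FPKM (-1.19, SE 0.153, adjusted p = 0.000133), *P4ha1*, a collagen prolyl hydroxylase, from 57.1 and 65.8 FPKM to 22.6 and 31.8 FPKM (-1.19, SE 0.217, adjusted p = 0.00181) and *Pfkm*, a phosphofructokinase, from 18.0 and 18.2 FPKM to 9.99 and 9.49 FPKM (-0.89, SE 0.149, adjusted p = 0.00108). *Pgk1*, among the most abundant genes that fell, was at 659 and 659 FPKM in WT and 398 and 425 FPKM in Sp3-/- cells (-0.68, SE 0.173, adjusted p = 0.0146). Another glucose transporter, *Slc2a1*, was at 144 and 156 FPKM against 82.6 and 105 FPKM and was not called (-0.68, adjusted p = 0.487). The gene called higher was *Hk2*, picked after its values were seen (41.6 and 39.9 against 59.9 and 56.3 FPKM). In Sp1 ΔDBD/ΔDBD Flk1+ cells against the same WT samples 5 genes of the list were called lower and 0 higher, with a median of -0.44. Directly compared, 1 gene was higher and 2 were lower in Sp3-/- than in Sp1 ΔDBD/ΔDBD cells.

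Targets of p53 were in part lower. Of 29 tested targets and cell cycle inhibitors, 9 were called lower and 2 higher, with a median of -0.03, and 5 to 7 were called lower with 1 sample left out. *Ccng1*, cyclin G1, fell from 106 and 110 FPKM to 42.9 and 38.9 FPKM (log2 fold change -1.40, SE 0.163, adjusted p = 3.99e-05). This gene lies on chromosome 11, where 116 of 1205 tested genes were called lower and 43 higher, and the part of the chromosome was not tested. *Phlda3*, whose promoter is shown above, fell from 13.5 and 12.9 FPKM to 5.62 and 6.22 FPKM (-1.15, SE 0.161, adjusted p = 0.000289), *Eda2r*, a death receptor, from 11.9 and 13.7 FPKM to 5.28 and 4.85 FPKM (-1.32, SE 0.208, adjusted p = 0.000689), *Plk2* from 11.02 and 9.12 FPKM to 4.62 and 4.42 FPKM (-1.13, SE 0.201, adjusted p = 0.00153) and *Cdkn1a*, the inhibitor p21, from 7.78 and 9.50 FPKM to 4.64 and 4.03 FPKM (-0.98, SE 0.197, adjusted p = 0.00346). *Ccng1*, *Phlda3*, *Eda2r* and *Plk2* kept the call. *Trp53* was at 92.1 and 81.1 FPKM in WT and 129 and 120 FPKM in Sp3-/- (0.53, adjusted p = 0.078). The 2 called higher, picked after their values were seen, were *Pmaip1* (1.59) and *Cdkn2a* (0.0912 and 0 against 1.39 and 0.343 FPKM). In Sp1 ΔDBD/ΔDBD Flk1+ cells against the same WT samples 7 genes of the list were called lower and 1 higher, with a median of -0.28. Directly compared, 2 genes were higher and 1 was lower in Sp3-/- than in Sp1 ΔDBD/ΔDBD cells.

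Of 29 imprinted genes, 7 were called lower and 1 higher, with a median of -0.45. With 1 sample left out 3 to 5 were called lower and 0 to 1 higher. Besides *Meg3* and *Rian*, *Mest*, a hydrolase expressed from the paternal allele, fell from 61.7 and 82.6 FPKM to 26.5 and 20.4 FPKM (log2 fold change -1.62, SE 0.272, adjusted p = 0.00111) and *Slc38a4*, an amino acid transporter, from 182 and 197 FPKM to 119 and 107 FPKM (-0.75, SE 0.122, adjusted p = 0.000842). *Igf2* was at 191 and 235 FPKM in WT and 81.2 and 101 FPKM in Sp3-/- (-1.22, adjusted p = 0.0874) and *H19* at 46.9 and 77.5 FPKM against 34.7 and 46.9 FPKM (-0.58, adjusted p = 0.597). Genes expressed from either parental allele were thus among those that fell.

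Clustered histone genes were higher, with 22 of 73 called higher, 0 lower and a median log2 fold change of 1.28. The list was taken by symbol and also holds linker histone genes outside the clusters, such as *H1f0* and *H1fx*. The rise was also seen in ESC and HE1. In Sp3-/- ESC 50 were called higher (median 2.11), in HE1 28 (1.33), in HE2 19 (0.99) and in progenitors 4 (0.71), with 0 lower in each. The shares of all tested genes called higher were 6.69% in Flk1+ cells, 5.4% in ESC and 6.02% in HE1. No such share is given for HE2 and progenitors, so the 4 in progenitors are not read as a rise. The summed level of the list in Flk1+ cells was 16803 and 15465 FPKM in the WT samples and 34259 and 34221 FPKM in the Sp3-/- samples. *Hist2h2bb* was at 815 and 843 FPKM in WT and at 2128 and 1729 FPKM in Sp3-/- cells (1.21, SE 0.163, adjusted p = 0.00021) and *Hist1h4d* at 956 and 782 FPKM against 2259 and 2259 FPKM (1.38, adjusted p = 0.0225). Equal values arise from the quantile normalisation. *Hist1h3b*, *Hist1h2bj*, *Hist1h3g*, *Hist1h3d* and *Hist1h2bh* rose by 1.15 to 1.48 on the same scale. *H1fx*, a linker histone, rose from 6.19 and 5.82 FPKM to 19.96 and 21.2 FPKM (1.76, adjusted p = 0.00504), but its adjusted p was 0.953 after the correction for GC content and length, under which 20 genes of the list were called higher and 1 lower. Histone genes have near-identical copies, so single values are uncertain, and 2 to 7 of the list were called higher with 1 sample left out.

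Genes for cytosolic ribosomal proteins were lower in part, with 18 of 83 called lower, 1 higher and a median of -0.18. With 1 sample left out 4 to 13 were called lower and 0 higher. *Rpl39* was at 1228 and 1313 FPKM in WT and 789 and 742 FPKM in Sp3-/- cells (-0.73, SE 0.132, adjusted p = 0.00173), *Rps27a* at 1125 and 1216 FPKM against 684 and 715 FPKM (-0.74, SE 0.111, adjusted p = 0.000485) and *Rpl27* at 677 and 692 FPKM against 437 and 450 FPKM (-0.62, SE 0.109, adjusted p = 0.00134). These 3 kept the call. *Rpl10a* (886 and 886 FPKM in WT, 819 and 797 FPKM in Sp3-/-) was not called. Pseudogenes may share reads with these genes as well. *Rpl27* lies on chromosome 11, where 116 of 1205 tested genes were called lower and 43 higher. The part of this chromosome in the change of the list was not tested.

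The counts of this paragraph stand beside 6.69% called higher and 5.94% lower over all tested genes, and a count near these shares is no result about its list. Of 80 genes of the respiratory chain 2 were called higher and 3 lower (median 0.00), with *Atp5s* at 6.45 and 8.24 FPKM in WT and 2.21 and 2.33 FPKM in Sp3-/-. Of 46 proteasome subunits 5 were higher and 4 lower (median 0.05), with *Psmc4* at 95.3 and 86.5 against 131 and 123 FPKM. Of 45 matrix genes 2 were higher and 4 lower (median 0), and *Lama4*, a laminin chain of vessels, fell from 13.8 and 18.4 FPKM to 3.56 and 3.63 FPKM (-2.11, SE 0.312, adjusted p = 0.000472). Of 48 replication genes 3 were higher and 1 lower (median 0.02), of 31 genes of lipid synthesis 1 and 2 (median 0.04), and of 32 genes of the integrated stress response 5 and 0 (median 0.33). Of 33 genes of oxidative stress 1 was higher and 2 lower (median -0.16), with their regulator *Nfe2l2* at 49.2 and 47.6 FPKM in WT and 31.5 and 31.5 FPKM in Sp3-/-. Of 39 DNA methylation and Polycomb genes 4 were higher and 4 lower (median -0.03), and *Pcgf5*, a Polycomb subunit, fell from 20.5 and 24.1 FPKM to 7.32 and 9.70 FPKM (-1.39, SE 0.215, adjusted p = 0.000612). Of 23 immediate early genes 4 were higher and 1 lower (median 0.68), with *Ier2* at 21.2 and 15.9 against 46.1 and 44.1 FPKM. Of 30 germline genes 2 were higher and 0 lower (median 0), of 20 genes of the epithelial to mesenchymal transition 1 (*Cdh2*) and 0 (median 0.27), of 99 small nucleolar RNA genes 2 and 4 (median -0.04), of 24 protocadherins 0 and 0 (median 0.41) and of 359 Zfp genes 20 and 25 (median -0.14). With 1 sample left out, 4 to 8 Zfp genes were called higher and 5 to 9 lower, 0 to 2 proteasome subunits higher and 0 to 1 lower, 0 to 1 genes of the stress response higher and 0 to 5 immediate early genes higher.

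To ask which changes belong to the Flk1+ stage, the effect of Sp3 loss was compared with that in ESC and in HE1, which share no sample with it. In ESC 1644 genes were called (11.3%), 785 higher (5.4%) and 859 lower (5.91%), and in HE1 1583 (10.9%), 875 higher (6.02%) and 708 lower (4.87%). Of the Flk1+ calls, 534 were also called in ESC in the same direction (29.1% of the Flk1+ calls and 32.5% of the ESC calls) and 21 in the opposite direction, and for HE1 the numbers were 346 (18.9% and 21.9%) and 49. The difference of the effects was tested for each gene. It passed the threshold for 215 genes against ESC (1.48%), 145 with a more positive effect in Flk1+ cells (0.998%) and 70 with a more negative one (0.482%). Against HE1 it passed for 584 genes (4.02%), 279 more positive (1.92%) and 305 more negative (2.1%). Of the 26 streak and Nodal genes, 2 had a more positive effect in Flk1+ cells than in ESC and 6 than in HE1, and of the 25 endothelial genes 6 and 5, with 0 in the other direction in each case. The median of the streak list in HE1 was 0.0705, the value of a gene listed near 0 FPKM in both genotypes there. Part of the list was thus near 0 in HE1, where little effect can be seen. The 6 therefore do not tell a stage-specific effect from absent expression. The median log2 fold change of the endothelial list was -0.10 in ESC and -0.34 in HE1.

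Among single genes, *Lefty2* was abundant in ESC of both genotypes (means of 65.6 and 102 FPKM in WT and Sp3-/-) and near 0 in HE1, and its effect in Flk1+ cells was larger than in ESC by 3.63 on the log2 scale (adjusted p = 0.018). *Icam2*, which is high in HE1 (75.8 FPKM in WT and 48.1 FPKM in Sp3-/-), had a log2 fold change of -0.61 there against 2.77 in Flk1+ cells. *Unc5c* changed by -3.01 in Flk1+ cells and by 1.24 in HE1 (adjusted p = 0.0175). *Cdh2*, N-cadherin, was higher in Sp3-/- Flk1+ cells (57.2 and 56.2 against 91.9 and 86.8 FPKM) but lower in Sp3-/- ESC (-1.84, adjusted p = 4.23e-05) and HE1 (-1.03, adjusted p = 0.00295). *Cfc1*, a Nodal coreceptor, was at 99.4 and 108 FPKM in WT and 16.7 and 31.3 FPKM in Sp3-/- Flk1+ cells (-2.17, SE 0.383, adjusted p = 0.00143), whereas in ESC it changed by 0.64 (adjusted p = 0.326). *Dusp6* rose in Flk1+ cells and fell in HE1 (-1.15, adjusted p = 0.0334). *Klf10* changed by -0.21 in ESC and 0.03 in HE1, and both differences from its effect in Flk1+ cells passed the test (adjusted p = 0.034 and 0.00837). In contrast, *Ccng1* (-1.02 in ESC and -1.31 in HE1), *Mest* (-2.0 and -1.93) and *Meg3* (-5.16 and -5.29) fell in each of the 3 populations, and a difference in effect did not pass the test for any of them.

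**Figure D4:**
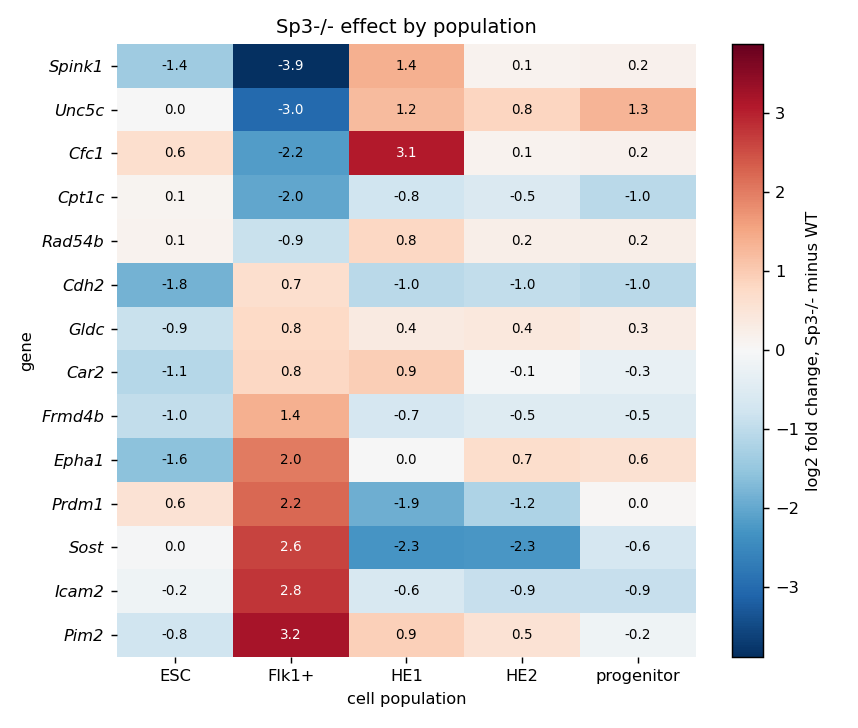
Log2 fold change (Sp3-/- minus WT) of 14 named genes in ESC, Flk1+, HE1 and the later HE2 and progenitor cells, as colours with the values printed in the cells. They are the genes with the lowest p in the tests of a difference from ESC or HE1, so the Flk1+ column stands apart by choice. *Icam2* is positive in Flk1+ cells and negative in the other populations, but in ESC its mean was below the pseudocount in both genotypes. *Unc5c* is negative in Flk1+ cells and positive in HE1.

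Sp3-/- Flk1+ cells were also compared directly with Sp1 ΔDBD/ΔDBD Flk1+ cells. Of the tested genes 1074 differed (7.39%), 525 higher (3.61%) and 549 lower (3.78%) in Sp3-/- cells, and 513 of these were called between Sp3-/- and WT as well. Without 1 replicate 256 to 982 genes differed, the fewest without Sp1 ΔDBD/ΔDBD replicate 2, and limma with only the 4 samples compared called 0, where 3645 had an unadjusted p under 0.05. Of the streak list 6 genes were higher in Sp3-/- cells and 0 lower. *Mesp1* was at 39.8 and 22.0 FPKM in Sp1 ΔDBD/ΔDBD cells, below Sp3-/- by 2.04 on the log2 scale (SE 0.32, adjusted p = 0.000648). *Gsc* (10.5 and 1.36 FPKM) and *Lefty2* (14.4 and 2.51 FPKM) differed widely between the Sp1 ΔDBD/ΔDBD replicates, and were lower there than in Sp3-/- cells by 2.1 and 2.02 (adjusted p = 0.0273 and 0.0245). *Eomes* (151 and 91.9 FPKM, difference 0.44, adjusted p = 0.645) and *Icam2* (3.25 and 3.01 FPKM, difference -0.36, SE 0.267, adjusted p = 0.484) did not pass the test. Of the endothelial genes 0 were higher and 1 lower in Sp3-/- than in Sp1 ΔDBD/ΔDBD cells. Against WT, with which both mutants share the same 2 samples, 12 of these 25 genes were called higher in Sp3-/- and 11 in Sp1 ΔDBD/ΔDBD cells, where 804 of all tested genes were called (5.54%), 424 higher (2.92%) and 380 lower (2.62%).

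The mutants parted on other genes. Of 73 histone genes 33 were higher in Sp3-/- than in Sp1 ΔDBD/ΔDBD cells and 0 lower, and of 83 ribosomal protein genes 0 were higher and 12 lower. *Mest* was at 193 and 336 FPKM in Sp1 ΔDBD/ΔDBD cells, and thus above WT as Sp3-/- was below it (Sp3-/- minus Sp1 ΔDBD/ΔDBD -3.45, SE 0.272, adjusted p = 3.09e-07). *Rhox5*, an X-linked homeobox gene, was at 0.851 and 0.643 FPKM in WT, 2.50 and 1.76 FPKM in Sp3-/- and 32.8 and 22.4 FPKM in Sp1 ΔDBD/ΔDBD cells (-3.63, adjusted p = 3.24e-07). *Wbp2nl* was at 0.151 and 0.151 FPKM in WT and 1.79 and 1.57 FPKM in Sp3-/- and was listed at 0 in both Sp1 ΔDBD/ΔDBD samples. *Eif5a2*, a translation factor, was at 10.9 and 10.3 FPKM in WT, 6.07 and 5.30 FPKM in Sp3-/- and 20.9 and 22.2 FPKM in Sp1 ΔDBD/ΔDBD cells (-1.91, adjusted p = 5.8e-07).

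Some differences between Sp3-/- and WT cells were seen at every stage. In all 5 populations 99 genes were called in the same direction, 49 higher and 50 lower. By position, which was examined after values were seen, 27 of the 50 lower genes lay on chromosome 11 and 9 of the 49 higher genes on chromosome 14, which hold 8.30% and 3.51% of the tested genes. Among them were *Sp3*, *Mest* and *Ccng1* and, from the Y chromosome, *Uty* (8.57 and 10.2 against 2.17 and 1.97 FPKM, log2 fold change -2.12, SE 0.246, adjusted p = 3.99e-05) and *Eif2s3y* (26.3 and 28.6 against 9.15 and 10.02 FPKM, -1.51, SE 0.127, adjusted p = 2.36e-06). *Fzd10*, *H1fx* and *Zfp865* were among the genes higher in all 5. In Flk1+ cells, 116 of the 1205 tested genes of chromosome 11 were called lower and 43 higher (median -0.12), and 50 of 514 genes of chromosome X were lower and 13 higher (median -0.12), whereas chromosome 19 had 47 of 474 higher and 22 lower (median 0.13). After the correction for GC content and length the median was -0.17 for chromosome 11, -0.01 for X and 0.09 for 19. Sp1 ΔDBD/ΔDBD Flk1+ cells against the same WT samples, without this correction, had medians of -0.197 to -0.0708 in the windows of chromosome 11 examined. Of the other 31 tested genes within 2 Mb of *Sp3*, 5 were called (16.1%), against 12.6% of all tested genes. *Dcaf17* (-0.68), *Map3k20* (-0.71), *Ola1* (-0.80) and *Scrn3* (-0.94) were lower and *Slc25a12* (0.48) higher. Clonal differences between the lines cannot be told apart from the genotype.

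The size of the change also followed base composition. Across 9527 genes with a mean above 3 FPKM the log2 fold change had a Spearman rho of 0.436 with the GC content of the gene and of -0.17 with its length. The genes of each sample share a library, and genes are not replicates. In the 4 pairs of an Sp3-/- and a WT sample the rho was 0.409 to 0.429, between the replicates of WT it was -0.171 and between those of Sp3-/- -0.146, and for Sp1 ΔDBD/ΔDBD against WT it was 0.00968. Among the 1906 genes with the lowest GC content (29.6 to 43.6%) 15 were called higher and 269 lower, with a median of -0.25, and among the 1906 with the highest (55.3 to 71.3%) 352 and 45, with a median of 0.29. Of the 1835 calls, 1269 were also made after the correction for GC content and length, which called 1748 genes. Beyond this correction, the part of base composition in the results above was not tested.

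**Figure D5:**
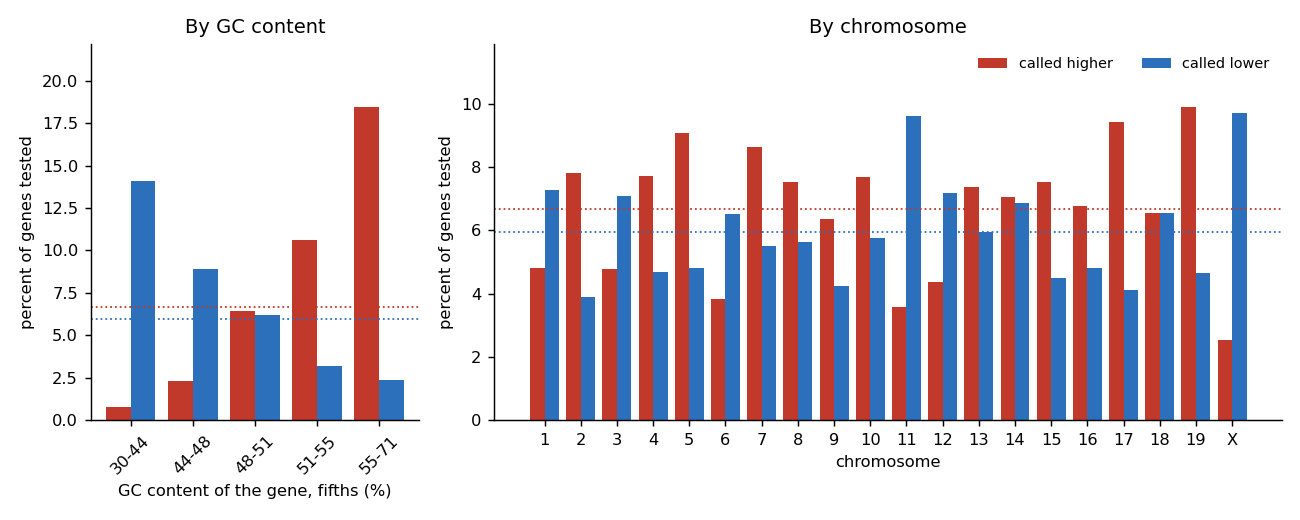
Percent of tested genes called higher (red) and lower (blue) in Sp3-/- Flk1+ cells in 5 equal classes of GC content and by chromosome (1 to 19 and X), with dotted lines at the values over all tested genes (6.69% higher and 5.94% lower). The share called higher rises and the share called lower falls from the lowest to the highest class, and chromosomes 11 and X have more genes lower than higher.

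Finally, the called genes were set beside the WT course of differentiation, with classes formed from WT ESC and WT HE1 samples alone. Of 2430 genes that were more than 2-fold higher in WT ESC than in WT HE1, 135 were called higher (5.56%) and 156 lower (6.42%) in Sp3-/- Flk1+ cells, with a median log2 fold change of -0.02. Of 2299 genes that were more than 2-fold higher in WT HE1, 206 were called higher (8.96%) and 171 lower (7.44%), with a median of 0.01. Neither class had a median shifted by more than 0.1 from that of all genes.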

How the data were processed

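RNA from 30 samples (5 populations in 3 genotypes, 2 replicates each) was sequenced from stranded total RNA libraries depleted of ribosomal RNA. Per the study's methods and notes, the authors aligned the reads to mm10 with HISAT2 2.1.0, calculated FPKM with StringTie 1.3.3, removed genes that did not exceed 1 FPKM in any sample and applied quantile normalisation. The deposited table holds these FPKM values, from which depth cannot be recovered. Quantile normalisation gives all samples the same distribution, so a shift shared by most genes is removed. Values were taken as log2(FPKM + 0.1), and the 14525 of 14685 genes above 1 FPKM in at least 1 sample were fitted with limma 3.58.1 (R 4.3.3) as 15 group means over all 30 samples, with a mean-variance trend, 15 residual and 3.92 prior degrees of freedom. P-values are two-sided and adjusted by the method of Benjamini and Hochberg over all tested genes in each comparison. The methods call the replicates biological, and p-values measure the spread between these samples only. Groups come from the deposited labels. Gene positions, GC content and length came from GENCODE M21 (14559 symbols matched) and promoters from RefSeq (GRCm38.p6, genes with 1 listed start). The script was tested on simulated data with known changes. Python 3.11.15, pandas 2.3.3 and scipy 1.17.1 were used for summaries.

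The comparison, the 39 gene lists (1 of which, mitochondrially encoded genes, had 0 tested members) and the tests were chosen with earlier results of these data known. Named genes are the Sp and Klf family, the 12 largest called rises and falls above 3 FPKM without overlap (leaving out Gm, Rik, histone and small nucleolar RNA symbols), the 6 most abundant called genes with a fold above 1.5 in each direction, the first 2 and up to 4 called genes of each list, up to 8 genes of each difference test and the called genes within 2 Mb of *Sp3*. Any other gene is said to be picked after its values were seen. An item that the rule names is not reported here. Alternatives tried were a pseudocount of 1, other filters on low values, fits on fewer samples, a replicate block, rescaling, centring, a correction for GC content and length, and leaving out each replicate.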

Additional observations from a re-analysis of the deposited data

Results flagged for a closer look

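The results below are those in which the effect of Sp3 loss in Flk1+ cells differed from its effect in another population by the limma test of the difference itself (adjusted p below 0.05). Differences are in log2(FPKM + 0.1), as the effect in Flk1+ cells minus the effect in the other population. They are given as values, with no explanation.

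Against ESC, 215 genes differed. The effect on *Pim2* was more positive in Flk1+ cells by 3.97 (SE 0.519, adjusted p = 0.000623), with a log2 fold change of -0.78 in ESC. For *Icam2* the difference was 2.94 (SE 0.377), and its mean in ESC was below 0.1 FPKM in both genotypes. *Cdh2* (2.50, SE 0.280, adjusted p = 0.000187), *Car2*, a carbonic anhydrase (1.88, SE 0.185, adjusted p = 6.2e-05), *Frmd4b* (2.34, SE 0.265), *Gldc*, the glycine decarboxylase (1.64, SE 0.217), and *Epha1*, an ephrin receptor (3.61, SE 0.525, adjusted p = 0.00158), rose in Sp3-/- Flk1+ cells and fell in Sp3-/- ESC, both with a call. *Cpt1c*, a carnitine palmitoyltransferase of the brain type, fell from 11.5 and 11.7 FPKM to 3.29 and 2.38 FPKM in Flk1+ cells and changed by 0.10 in ESC, a difference of -2.11 (SE 0.278, adjusted p = 0.000623).

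Against HE1, 584 genes differed. For *Unc5c* the difference was -4.25 (SE 0.449, adjusted p = 6.37e-05), and for *Icam2* it was 3.38 (adjusted p = 0.000114). *Prdm1*, a transcriptional repressor, rose from 0.213 and 0.156 FPKM to 1.70 and 0.884 FPKM in Flk1+ cells and changed by -1.89 in HE1 (difference 4.12, SE 0.487, adjusted p = 0.000213). *Frmd4b* rose in Flk1+ cells and fell in HE1 (2.03). *Rad54b*, a recombination helicase, fell in Flk1+ cells by 0.85 on the log2 scale and rose in HE1 by 0.80 (difference -1.65, SE 0.202, adjusted p = 0.00025). *Cfc1* differed by -5.25 (SE 0.541), with a mean near 0 in WT HE1 and 0.750 FPKM in Sp3-/- HE1. The remaining 2 rest on samples listed at 0, so that their size depends on the pseudocount: *Spink1* (difference -5.26) was at 1.48 and 1.27 FPKM in WT Flk1+ samples and listed at 0 in both Sp3-/- ones, and *Sost* (4.89) was listed at 0 in both WT Flk1+ samples and at 0.595 and 0.435 FPKM in the Sp3-/- ones.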

How the results depend on the processing

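The limits of these results are 2 samples in a group, an unknown depth and a single line of each genotype. Main calls (1835) ranged from 400 to 917 when 1 replicate was left out, and were 2671 with only the compared groups fitted, 2089 with the 6 Flk1+ samples and 1748 once GC and length trends were removed. *Sp3* stayed called in every alternative run, with log2 fold changes of -2.47 to -2.13. The 215 differences from ESC were 458 with a pseudocount of 1, 410 with only the compared groups, 330 with the GC correction, 458 with it and the replicate block, and 42 to 178 without 1 replicate. The 584 differences from HE1 were 1169 with only the compared groups, 1100 with the GC correction and replicate block, and 106 to 553 without 1 replicate. The share of more positive effects, 67.4% against ESC, was 50.8% with only the 2 populations compared and 52.9% with only the groups compared. The 1074 genes that differed from Sp1 ΔDBD/ΔDBD were 256 to 982 without 1 replicate and 0 by limma with only the 4 samples compared, where 3645 had an unadjusted p under 0.05. Fold changes above 2 (651) were 1429 with no minimum level, 377 when required in all 4 pairs, and 588 to 826 without 1 replicate. Endothelial genes called higher (12) were 6 with a pseudocount of 1, 4 with the 6 Flk1+ samples and 2 to 4 without 1 replicate. Streak genes called higher (12) were 5 with the 6 Flk1+ samples and 6 to 8 without 1 replicate.

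The medians of chromosomes 11 and X, -0.12 each over all their tested genes, were -0.13 to -0.10 and -0.144 to -0.0947 without 1 replicate, and -0.14 and -0.17 over genes above 3 FPKM in either group. For genes higher in WT ESC the median, -0.02 over all of them, was -0.0425 to -0.0125 without 1 replicate and -0.0724 over genes above 3 FPKM, and the rho with GC content was 0.421 to 0.433. Equal replicate numbers were not taken as pairs, since no label ties them: over 12016 genes the deviations of same-numbered samples correlated by 0.0196 between WT and Sp3-/- and by 0.222 between WT and Sp1 ΔDBD/ΔDBD. With a replicate block 2130 genes were called, and 294 and 790 differed from ESC and HE1. Of 156 called named genes besides *Sp3*, leaving out 1 replicate ended 46 to 86 calls, fitting the 6 Flk1+ samples alone 49 and the GC correction 15, and none of the named calls changed direction in any alternative run.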

Other observations

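The values of this paragraph were picked after they were seen and belong to genes with large differences that were not called. *Lars2*, a mitochondrial leucyl-tRNA synthetase, was at 10322 and 12779 FPKM in the WT Flk1+ samples and at 742 and 766 FPKM in the Sp3-/- samples, but with an SE of 2.38 its log2 fold change of -3.93 was not called by limma (adjusted p = 0.311). It was at 10322 and 12779 FPKM in the Sp1 ΔDBD/ΔDBD samples. Such equal values arise from the quantile normalisation and give a rank within a sample, not a measured level. The size of the *Lars2* difference is therefore uncertain. *Rps27* was at 7.77 FPKM in WT replicate 1 and at 1187 FPKM in WT replicate 2, while its near-identical copy *Rps27rt* was at 1187 and 38.2 FPKM in the same samples. In both Sp3-/- samples *Rps27* was at 1313 FPKM and *Rps27rt* at 29.7 and 36.7 FPKM. The RNA component of RNase MRP, *Rmrp*, was at 7014 and 5094 FPKM in WT and at 12779 FPKM in both Sp3-/- samples (adjusted p = 0.234).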
